A study of Mus musculus with 6 samples.

Results

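The miR-99, miR-100 and miR-125 families were followed in whole kidney of male C57BL/6 mice, a standard inbred laboratory strain, at 20 months and at 2 months of age. The members were the 5 array entries mmu-miR-99a-5p, mmu-miR-99b-5p, mmu-miR-100-5p, mmu-miR-125a-5p and mmu-miR-125b-5p, chosen by name among 1247 mouse miRNAs on the array and written here without the species prefix. Small-RNA-containing total RNA of 3 preparations per age, with no treatment named and no genetic change labelled, was hybridised to 1-colour Agilent arrays, 1 array per preparation. Whether each preparation came from its own animal is not stated, so the p-values reflect variation among preparations, part of which may be technical. The samples are of bulk tissue, in which fewer cells of a type and less RNA per cell cannot be told apart.

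A miRNA guides the silencing complex to messenger RNAs that pair with its seed, the short stretch just after its first base. The miR-99 and miR-100 miRNAs share one seed and are known in human cells to repress mTOR and the IGF1 receptor, both regulators of growth. The miR-125 miRNAs share another and are vertebrate relatives of lin-4, the miRNA that times larval development in Caenorhabditis elegans. In human cells and zebrafish miR-125b is known to repress p53, and in mouse bone marrow miR-125a supports blood stem cells. In the genome a miR-99 or miR-100 hairpin, a let-7 hairpin and a miR-125 hairpin stand in a row, and such rows are often transcribed as one precursor.

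The mature sequences below are those of RefSeq on GRCm38.p6, in which all 5 members were found, and are shown because the array must tell them apart. Capitals mark the seed, bases 2 to 8 from the 5′ end.
miR-99a-5p: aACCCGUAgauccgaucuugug
miR-100-5p: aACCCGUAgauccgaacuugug
miR-99b-5p: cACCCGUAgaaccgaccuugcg
miR-125a-5p: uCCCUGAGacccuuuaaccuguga
miR-125b-5p: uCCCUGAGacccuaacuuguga

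Within the first family the seed ACCCGUA was identical, and the members differed elsewhere. With positions counted from 1 at the 5′ end, miR-99a-5p and miR-100-5p differed by the single substitution U16A (miR-99a-5p base first). miR-99a-5p and miR-99b-5p differed by A1C, U11A, U16C and U21C, again with the base of miR-99a-5p first. miR-125a-5p, of 24 bases, and miR-125b-5p, of 22 bases, shared their first 13 bases and differed after them. Either can be turned into the other by 3 single-base changes, gaps included. Signal on a probe for one member can therefore come in part from another, which applies most to miR-99a-5p and miR-100-5p. How much did so was not tested.

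The 5 members come from 3 rows of hairpins, each on the plus strand of GRCm38.p6. On chromosome 17 the order is Mir99b, Mirlet7e and Mir125a, with miR-99b-5p at chr17:17830194-17830215 and miR-125a-5p at chr17:17830817-17830840, in a row of 683 bases from the first mature miRNA to the last. On chromosome 16 it is Mir99a, Mirlet7c-1 and Mir125b-2 over 47400 bases, with miR-99a-5p at chr16:77598940-77598961 and miR-125b-5p at chr16:77646279-77646300. On chromosome 9 it is Mir100, Mirlet7a-2 and Mir125b-1 over 50565 bases, with miR-100-5p at chr9:41531437-41531458 and miR-125b-5p at chr9:41581940-41581961. The chromosome 9 row lies inside the annotated bounds of the non-coding gene Mir100hg. The chromosome 16 row does not lie wholly inside those of Mir99ahg, and whether it overlaps them in part was not examined. miR-125b-5p is thus made from 2 hairpins with one mature sequence, and the array reads their sum. The array's own design names the build mm9, and no position was converted between builds.

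Of the 1247 miRNAs, 177 to 206 were well above background per 20-month array and 193 to 209 per 2-month array. All 8 miRNAs of a kidney-enriched list, among them miR-192-5p, miR-194-5p and miR-204-5p, were detected on all 6 arrays, and 4 of 5 miRNAs typical of other organs were detected on none. The fifth, the neuronal miR-124-3p, was detected on the 3 20-month arrays and on 0 of the 2-month arrays. The 3 20-month arrays lay in slide rows 1, 2 and 2, and the 3 2-month arrays all in row 1. Age and slide row could therefore be separated only through 20-month array 1.

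All 5 members were well above background on all 6 arrays, each with both of its probes. Levels are given as log2 of the signal summed over the probes of a miRNA, after division by a common reference signal of the array (its 75th percentile over probes detected throughout). The signal was highest for miR-125b-5p, followed by miR-99a-5p, miR-125a-5p, miR-100-5p and miR-99b-5p, at both ages. Each of the first 3 stood above the next one without overlap over the 6 arrays. miR-100-5p and miR-99b-5p overlapped between arrays, although miR-100-5p was the higher of the pair on each of the 6. Before scaling, the mean summed intensity was 2870 units at 20 months and 2475 at 2 months for miR-125b-5p, and 248 and 239 for miR-99b-5p. The 20-month means include array 2, which had the largest reference signal of the 6 arrays (2054 units). For miR-125b-5p it read 3619 units, against 2327 and 2665 on 20-month arrays 1 and 3. The order of the members is one of array signal, which depends on each probe's binding, and not of the number of molecules.

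**Figure D1:**
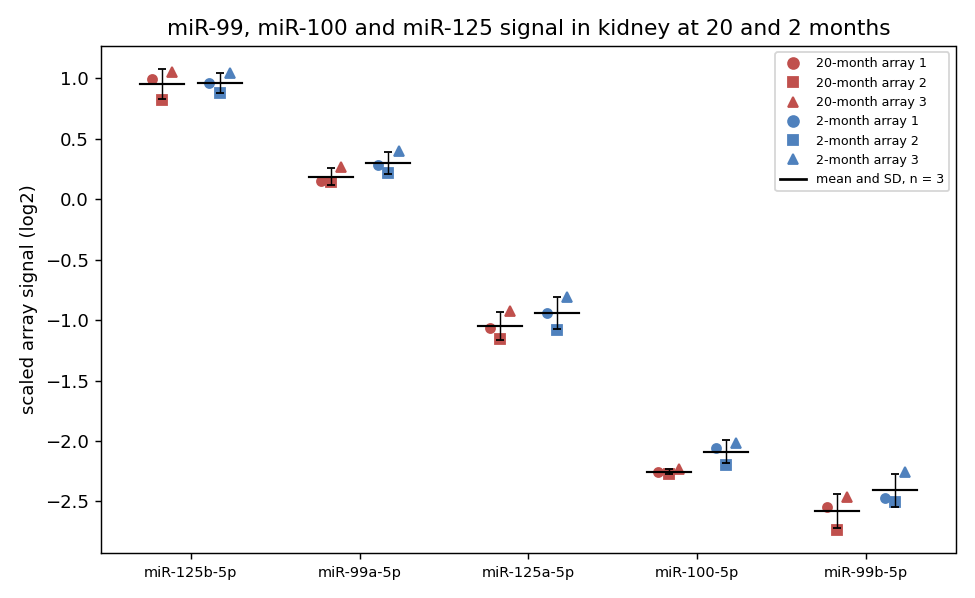
Scaled array signal (log2, vertical axis) of the 5 miRNAs, with 20-month arrays in red left of 2-month arrays in blue, 1 point per array, and bars for the mean and SD (n = 3). The order of signal is the same at both ages, from miR-125b-5p near 0.95 to miR-99b-5p below -2.25, and only for miR-100-5p do the ages not overlap.

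The question of the design is whether these levels differ between old and young kidney, and by limma none of the 5 members passed the threshold of 0.05 on the adjusted p (0 of 5). The threshold was passed by 15 of the 193 tested miRNAs (7.77%), 8 higher and 7 lower. That overall count changed when 1 array was left out, which also leaves fewer arrays to test. It was 12 higher and 27 lower without 20-month array 1, a fit in which age and slide row coincide. The count was 5 higher and 4 lower without 20-month array 2 or 3. Without 2-month arrays 1, 2 and 3 it was 4 and 2, 3 and 2, and 6 and 2. In each, 0 of the 5 members were called. At an unadjusted p under 0.05 the count was again 0 of 5, against 49 of 193 (25.4%). All 5 differences were below 0, as were 128 of the 193 (66.3%), and their median was -0.11, against -0.08 over all tested miRNAs. At these shares among all tested miRNAs, a count of 0 in 5 is near the background.

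miR-100-5p, of the chromosome 9 row, stood at -2.25, -2.28 and -2.23 on the 20-month arrays 1, 2 and 3, against -2.06, -2.20 and -2.02 on the 2-month arrays 1, 2 and 3. It was the member in which every 20-month array lay below every 2-month array. Of the 193 tested miRNAs 39 had their 20-month arrays below in this way (20.2%), and 59 were without overlap in either direction (30.6%). The difference was -0.16 ± 0.08 (log2, ± SE, n = 3 per age), with a limma 95% interval of -0.35 to 0.02 and an adjusted p of 0.239. In fold terms the 20-month level was 0.893 of the 2-month level (interval 0.784 to 1.02).

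miR-99a-5p, which differs from it by 1 base, stood at 0.15, 0.14 and 0.27 at 20 months, against 0.28, 0.22 and 0.40 at 2 months. The third 20-month array lay among the 2-month arrays and the other two below them. The difference was -0.11 ± 0.08 (limma 95% interval -0.31 to 0.09, adjusted p = 0.398).

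miR-99b-5p, the dimmest member and the neighbour of miR-125a-5p, stood at -2.54, -2.73 and -2.46 at 20 months, against -2.47, -2.50 and -2.25 at 2 months. The groups overlapped, and 20-month array 2 was the lowest of the 6. The difference was -0.17 ± 0.11 (limma 95% interval -0.44 to 0.09, adjusted p = 0.351).

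miR-125a-5p stood at -1.07, -1.15 and -0.92 at 20 months, against -0.94, -1.08 and -0.81 at 2 months. The 2 groups were interleaved. The difference was -0.11 ± 0.10 (limma 95% interval -0.36 to 0.14, adjusted p = 0.531).

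miR-125b-5p, the brightest member, stood at 0.99, 0.82 and 1.05 at 20 months, against 0.96, 0.88 and 1.04 at 2 months. The lowest and the highest of the 6 values were both from 20-month kidney. The difference was -0.01 ± 0.09 (limma 95% interval -0.23 to 0.22, adjusted p = 0.957), which in fold terms is 0.995 with an interval of 0.852 to 1.16. It was 189th of the 193 tested miRNAs by size of difference.

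**Figure D2:**
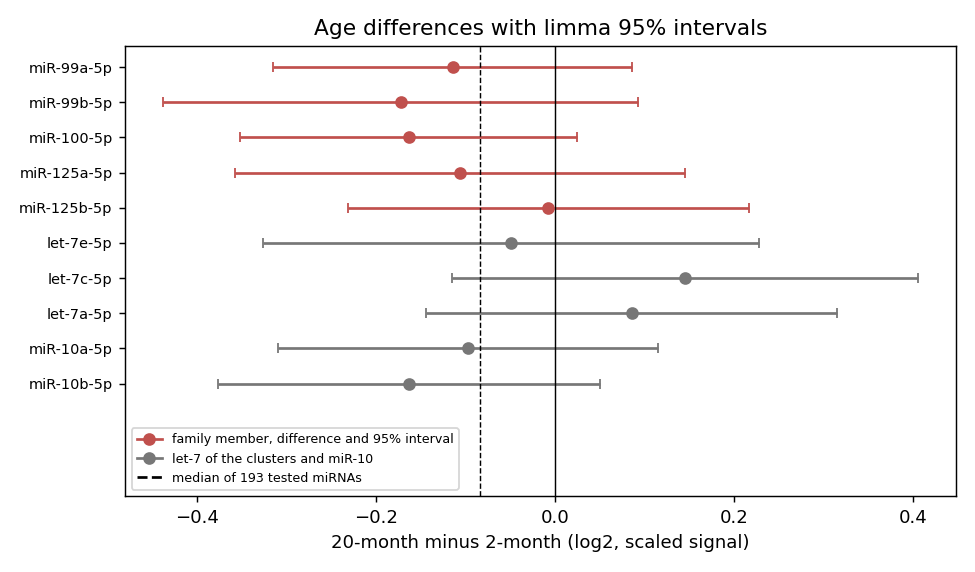
Difference between 20-month and 2-month kidney (log2, horizontal axis) with limma 95% intervals for the 5 members (red) and for the let-7 miRNAs of the same rows and miR-10 (grey), and the median of the 193 tested miRNAs as a dashed line. All 10 intervals span 0, and that of miR-100-5p reaches least above it among the members, to 0.02.

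The 2 probes of each member gave differences of one sign and close size. For miR-100-5p they were -0.16 and -0.17, for miR-99b-5p -0.16 and -0.19, for miR-99a-5p -0.11 and -0.14, for miR-125a-5p -0.10 and -0.12, and for miR-125b-5p -0.01 and -0.02. The brighter probe carried 65.1% of the summed signal for miR-99b-5p and 90.7% for miR-125b-5p, with the others between. Each probe was averaged over 16 to 20 spots per array. The resulting error per array was 0.01 to 0.04 (log2) for the summed signal. Between arrays of one age the SD was 0.07 to 0.14 for 4 members at 20 months and 0.08 to 0.14 for all 5 at 2 months. The exception was miR-100-5p at 20 months, with an SD of 0.02, within the error from spots. In 9 of these 10 groups the arrays thus differed by more than the spots did.

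The members lay to one side of their 2-month means on 3 of the 6 arrays and on both sides of them on the other 3. On 20-month array 2 all 5 lay below their 2-month means, by -0.33 to -0.14, and on 2-month array 2 all 5 did, by -0.14 to -0.08. On 2-month array 3 all 5 lay above, by 0.07 to 0.15. Signs were mixed on 20-month array 1 (-0.16 to 0.03, with miR-125b-5p the only member above), on 20-month array 3 (-0.14 to 0.09, with 3 of 5 below) and on 2-month array 1 (-0.06 to 0.04, with 3 of 5 below). Over all tested miRNAs the median shifts of the 3 arrays with a single sign against the 2-month means were -0.09, -0.06 and 0.06. A shift that an array gives to all members passes into each difference, but cancels in the ratio of 2 members read on the same array.

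Within-array ratios were therefore compared for the pairs encoded side by side and for the closest paralogues, 5 ratios in all. The exact two-sided permutation test over 3 against 3 arrays cannot go below p = 0.1. The ratio of miR-99b-5p to miR-125a-5p, the pair of the compact chromosome 17 row, was -1.48, -1.58 and -1.54 (log2) on the 20-month arrays, against -1.53, -1.42 and -1.44 on the 2-month arrays. The groups overlapped and differed by -0.07 (exact permutation p = 0.2, adjusted p = 0.25 over the 5 ratios).

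For the rows that encode miR-125b-5p, the ratio of miR-99a-5p to miR-125b-5p was -0.84, -0.68 and -0.79 at 20 months, against -0.68, -0.66 and -0.64 at 2 months. It differed by -0.11, and 20-month array 2 lay within the 2-month range (exact permutation p = 0.2, adjusted p = 0.25). The ratio of miR-100-5p to miR-125b-5p was -3.24, -3.09 and -3.29 at 20 months, against -3.02, -3.08 and -3.06 at 2 months. Here each 20-month array lay below each 2-month array, and the difference was -0.16, or 0.898 of the 2-month ratio (exact permutation p = 0.1, the smallest possible, and adjusted p = 0.25).

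Between paralogues, the ratio of miR-125a-5p to miR-125b-5p was -2.06, -1.97 and -1.98 at 20 months, against -1.90, -1.96 and -1.85 at 2 months. These groups did not overlap either, with 20-month array 2 and 2-month array 2 only about 0.01 apart (-1.97 and -1.96), and differed by -0.10 (exact permutation p = 0.1, the smallest possible, adjusted p = 0.25). The ratio of miR-99a-5p to miR-100-5p was 2.40, 2.42 and 2.50 at 20 months, against 2.34, 2.41 and 2.42 at 2 months, with overlap and a difference of 0.05 (exact permutation p = 0.4, adjusted p = 0.4). Non-overlap in 2 of 5 ratios compares with 39.6% of the 18528 ratios that can be formed between tested miRNAs, so it is near the background. Both ratios without overlap have miR-125b-5p as the denominator, so they are not independent of each other. With a smallest possible permutation p of 0.1, none of the 5 ratios could pass 0.05. Within slide row 1, which holds 20-month array 1 and the 3 2-month arrays, the difference was -0.011 for miR-99b-5p over miR-125a-5p, -0.18 for miR-99a-5p over miR-125b-5p and -0.19 for miR-100-5p over miR-125b-5p. It was -0.16 there for miR-125a-5p over miR-125b-5p and 0.012 for miR-99a-5p over miR-100-5p. With 1 array against 3 the exact permutation p cannot go below 0.25, and slide row 2 holds 20-month arrays only.

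**Figure D3:**
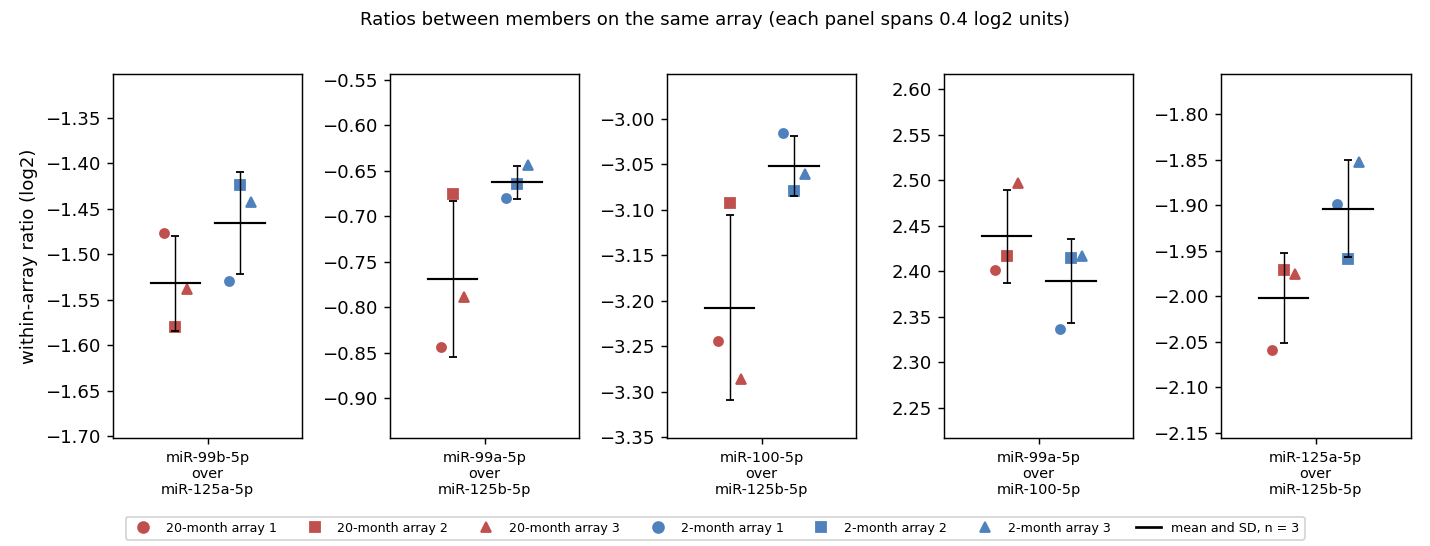
Within-array log2 ratios between members (vertical axes, each spanning 0.4 units), with 20-month arrays in red left of 2-month arrays in blue, 1 point per array, and bars for the mean and SD (n = 3). The ratios of miR-100-5p and of miR-125a-5p to miR-125b-5p are lower on each 20-month array than on any 2-month array, while the other 3 ratios overlap.

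The sign of the members' differences depended on how the arrays were scaled. When the 75th percentile was taken over every probe, detected or not, all 5 were positive, from 0.24 for miR-99b-5p to 0.40 for miR-125b-5p, while the median of all tested miRNAs moved to 0.33. Without scaling they ran from 0.03 to 0.19 around a median of 0.12, and in the authors' processed values from -0.06 to 0.11 around 0.03. The spacing of the 5 differences cannot change in 9 of the 22 alternatives, since a scale factor per array shifts all members alike, and the floor, the filters, the replicate block and the robust fit leave their differences as they are. miR-125b-5p had the highest difference of the 5 under the main processing and in the other 13 alternatives (13 of 13). These reuse all or some of the same 6 arrays and are not independent of each other. In none of the 22 did a member pass the threshold (0 of 110 values, lowest limma adjusted p 0.2, for miR-100-5p).

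**Figure D4:**
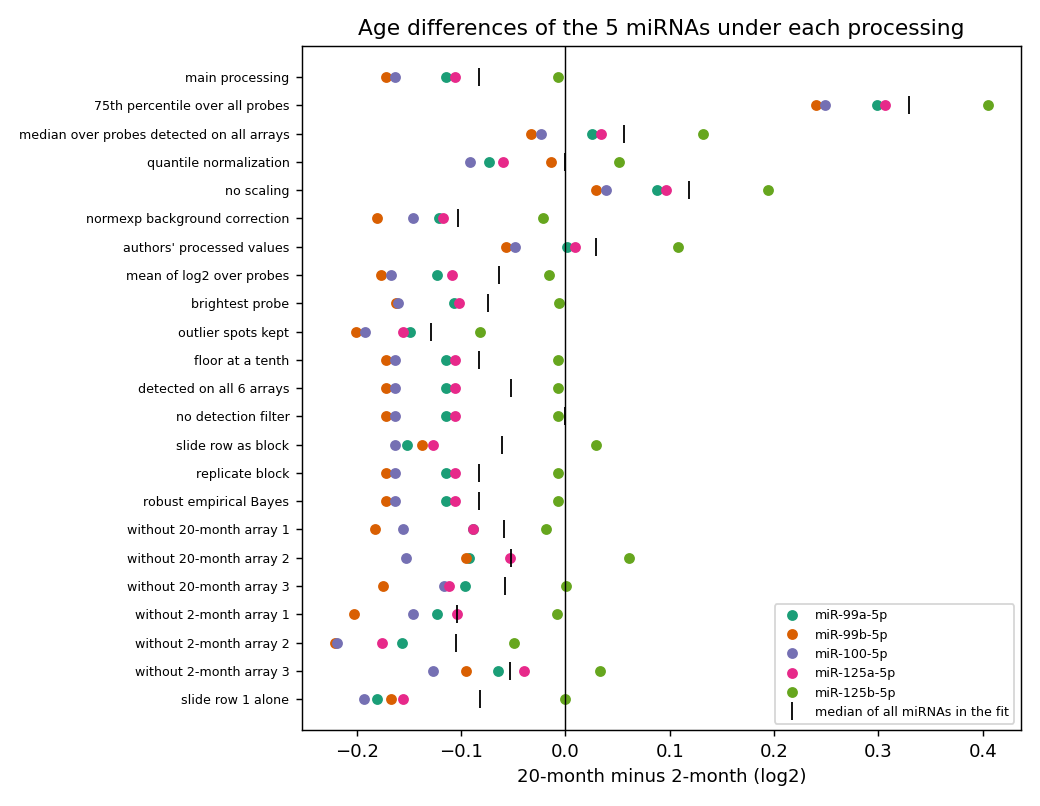
Difference between 20-month and 2-month kidney (log2, horizontal axis) of the 5 miRNAs under the main processing and 22 alternatives (vertical axis), with a black tick at the median of all miRNAs in each fit. The 5 points shift sideways together with the scaling, to between 0.24 and 0.40 when the 75th percentile covers every probe, and miR-125b-5p is the rightmost of the 5 in every line, 9 of which keep the spacing of the main processing by construction.

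The let-7 miRNAs of the same rows, repressors of growth and of embryonic gene programmes, did not pass the threshold either (0 of 3 by limma, and 0 of 3 at an unadjusted p under 0.05). let-7e-5p, encoded between miR-99b and miR-125a, differed by -0.05 ± 0.11 (limma adjusted p = 0.807). let-7c-5p, which also has a hairpin outside the chromosome 16 row, differed by 0.15 ± 0.11 (limma adjusted p = 0.403). let-7a-5p, with a hairpin elsewhere as well as in the chromosome 9 row, differed by 0.09 ± 0.09 (limma adjusted p = 0.586). The differences of let-7c-5p and let-7a-5p were above 0 and those of the 5 members below it, a contrast that was not tested.

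The opposite arms of the hairpins, the strands usually discarded, did not pass the detection rule. miR-99a-3p, miR-99b-3p, miR-100-3p, miR-125a-3p, miR-125b-1-3p and miR-125b-2-3p were well above background on 0 of 6 arrays, and so were the 3 opposite arms of the let-7 hairpins of these rows. Among the opposite arms of the members, unscaled summed intensity was highest for miR-125a-3p (36.2 to 57.5 units over the 6 arrays). It was next highest for miR-99b-3p (9.04 to 26.5 units). Since neither of the arms specific to Mir125b-1 and Mir125b-2 was detected, the signal of miR-125b-5p could not be divided between its 2 hairpins. In the authors' processed values miR-99b-3p was above the lowest listed value on 1 of the 3 2-month arrays, at -4.41, and on 0 of the 3 20-month arrays.

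In the RefSeq table the miR-99 and miR-100 seed was held by 3 mature miRNAs, all of them members. The miR-125 seed was held by 5, of which miR-351-5p, miR-6367 and miR-6394 are not members. All 3 were on the array and were well above background on 0 of 6 arrays, so miR-125a-5p and miR-125b-5p were the detected carriers of that seed. The sequence of miR-351-5p, printed as a carrier of the seed that was not detected, shares 8 leading bases with both members and can be turned into that of miR-125a-5p by 7 single-base changes, gaps included.
miR-351-5p: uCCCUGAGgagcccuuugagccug

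miR-10a-5p and miR-10b-5p, from the Hox clusters, are the nearest relatives of miR-100-5p outside its family and carry another seed.
miR-10a-5p: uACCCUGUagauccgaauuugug
miR-10b-5p: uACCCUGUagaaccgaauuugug
miR-100-5p can be turned into miR-10a-5p by 3 single-base changes, gaps included, and into miR-10b-5p by 4. Their differences were -0.10 ± 0.09 and -0.16 ± 0.09, and neither passed the threshold (limma adjusted p = 0.492 and 0.292).

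Likeness of profile was measured as the root-mean-square distance over the 6 arrays after centring each miRNA on its own mean. Of the miRNAs outside the families, miR-10b-5p was nearest to miR-100-5p (0.04), followed by miR-872-5p and miR-19b-3p (both 0.05). Nearest to miR-99a-5p were miR-25-3p (0.03), miR-497-5p and miR-30e-3p (both 0.04), and to miR-99b-5p miR-342-3p (0.05), miR-345-5p and miR-200b-5p (both 0.07). Nearest to miR-125a-5p were miR-345-5p, miR-1949 and miR-500-3p (each 0.05), and to miR-125b-5p miR-331-3p (0.04), miR-690 and miR-30c-5p (both 0.05). The median distance of a member to the other tested miRNAs was 0.14 to 0.17.

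Among all 192 other tested miRNAs, miR-125a-5p ranked 2nd in likeness to its close neighbour miR-99b-5p, and miR-99b-5p ranked 5th in likeness to miR-125a-5p. In the longer rows, miR-125b-5p ranked 36th for miR-99a-5p and 47th for miR-100-5p, while in the other direction miR-99a-5p ranked 12th and miR-100-5p 40th for miR-125b-5p. let-7e-5p ranked 54th for miR-99b-5p and 29th for miR-125a-5p. let-7c-5p ranked 100th for miR-99a-5p and 73rd for miR-125b-5p, and let-7a-5p 86th for miR-100-5p and 43rd for miR-125b-5p. miR-99a-5p ranked 2nd for miR-100-5p, the paralogue 1 base away on another chromosome, and miR-100-5p ranked 7th for miR-99a-5p. Of the other paralogues, miR-99b-5p ranked 31st for miR-99a-5p, and miR-99a-5p 4th for miR-99b-5p. miR-125b-5p ranked 10th for miR-125a-5p, and miR-125a-5p 9th for miR-125b-5p. miR-99a-5p ranked 1st for miR-125a-5p, and miR-125a-5p 4th for miR-99a-5p. Ranks in both directions come from 1 distance per pair. These ranks describe 6 arrays of 1 slide that share scaling. The members' SDs over the 6 arrays, 0.09 to 0.16, were below the median of 0.17 over all tested miRNAs, and flat profiles lie near each other by this measure.

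Lists of miRNAs typical of other cell types were read beside the members. For 6 stromal and smooth muscle miRNAs the summed level was 1.53 to 1.64 (log2) at 20 months and 1.30 to 1.39 at 2 months, with 2 of 6 higher by limma and 6 of 6 at an unadjusted p under 0.05. The list was split in direction. Of the fibroblast-associated miRNAs, the 5p arm miR-199a-5p rose by 0.34 (limma adjusted p = 0.0258) and the 3p arm miR-199a-3p by 0.40 (limma adjusted p = 0.0391), while miR-199b-5p and miR-214-3p differed by 0.33 and 0.30 (limma adjusted p = 0.0551 and 0.0939). The smooth muscle miRNAs miR-143-3p and miR-145a-5p differed by -0.27 and -0.25 (limma adjusted p = 0.12 and 0.149). The summed level of 3 erythroid miRNAs was 2.67 to 2.84 at 20 months and 3.07 to 3.23 at 2 months. Signal is summed before the log, so this level is mostly that of miR-451a (means 2.69 at 20 months and 3.03 at 2 months). The summed level of 5 leukocyte miRNAs was -0.41 to -0.08 at 20 months and -0.76 to -0.55 at 2 months. By limma 0 were called in either list (3 of 3 erythroid and 2 of 4 tested leukocyte miRNAs had an unadjusted p under 0.05). The 2 endothelial miRNAs stood at 2.73 to 2.86 at 20 months and 2.64 to 2.78 at 2 months, and miR-126-5p of this pair was detected on no array. The part of these cell types in the members' levels was not tested.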

How the data were processed

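The deposited spot values are fluorescence intensity, corrected for background by Agilent Feature Extraction 11.5.1.1 (design 046065) and not scaled, per the file headers. The authors also deposited log2 values, which differed from log2 of the scanner's total miRNA signals by a constant on each array (largest departure 1.0e-05 over 1268 entries). For its choice, the rule was not given in the sources used here. Their column medians were -9.49, -10.10 and -9.20 at 20 months and -9.74, -9.21 and -9.21 at 2 months. These medians differed between arrays only by the constant of each array, so they do not compare typical signal levels.

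For each probe the mean processed intensity of its spots, outliers left out, was divided by a scale factor of the array. The factor was the 75th percentile of the 315 probes that were well above background (in over 50% of their spots) on all 6 arrays, and it was 1171 to 2054 units. The scaled signal was summed over the probes of a miRNA, set to a floor of -5.22 (log2) where lower, and logged. The scaled signal of 1 miRNA is not comparable with that of another as an abundance. The 0 saturated spots needed no treatment. The 193 miRNAs detected on all arrays of at least 1 age were tested with limma 3.58.1 in R 4.3.3 (age as the single term, Benjamini-Hochberg). Data were read with data.table (release 1.17.8) and jsonlite 2.0.0 and drawn with matplotlib 3.10.9. The number of arrays limits the precision. Arrays correlated at 0.972 to 0.989 within the 20-month group and at 0.998 within the 2-month group. The limma step was also run on simulated data with planted differences. The files hold no mean spot signal, so normexp used the median spot signal.

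The miRNAs named are the members, their opposite arms, cluster and seed partners, miR-10, the 3 nearest profiles per member, and marker miRNAs, of which those of the stromal list were named after their values were seen. The members and lists were chosen with earlier results of these data known.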

Additional observations from a re-analysis of the deposited data

How the results depend on the processing

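None of the 5 members passed the threshold under any of 22 alternatives, all planned. Of 110 differences 21 changed sign, and 25 could not differ from the main values (floor, filters, replicate block and robust fit). With the 75th percentile over all probes all 5 did, to 0.30 for miR-99a-5p, 0.24 for miR-99b-5p, 0.25 for miR-100-5p, 0.31 for miR-125a-5p and 0.40 for miR-125b-5p, and without scaling to 0.088, 0.030, 0.039, 0.096 and 0.19 in that order. With the median over detected probes miR-99a-5p was at 0.025, miR-125a-5p at 0.034 and miR-125b-5p at 0.13, and in the authors' values at 0.0011, 0.0092 and 0.11. miR-125b-5p also turned to 0.051 under quantile normalization and to 0.029 with slide row as a block, and ranged from -0.049 to 0.061 with 1 array left out, its sign turning without 20-month array 2 or 3 or 2-month array 3 (0.061, 0.00022 and 0.033). Of 85 ratio values 25 could not differ, since a scale factor per array cancels in a ratio and the floor lies below the members. Of the rest 1 changed sign, miR-99b-5p over miR-125a-5p at 0.046 under quantile normalization. The cause was not tested.

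Over all miRNAs, 8 were called higher and 7 lower. The split was 18 and 3 with the median over detected probes, 19 and 2 with quantile normalization, 1 and 1 with no scaling, 4 and 0 with normexp (18 lower by limma where p was unadjusted and under 0.05), 10 and 0 with the authors' values (10 lower on the same terms), 4 and 2 with no detection filter, and 2 and 3 with slide row as a block. Leaving out 1 array gave 3 to 12 higher and 2 to 27 lower. The counts were 12 and 27 without 20-month array 1, a fit in which age and slide row coincide. They were 5 and 4 without 20-month array 2 or 3. Without 2-month array 1, 2 and 3 they were 4 and 2, 3 and 2, and 6 and 2. With a replicate block 2 were higher and 1 lower, and the members' differences were as before, with adjusted p from 0.244 to 0.937 by limma. Deviations of same-numbered arrays correlated at 0.12, -0.58 and 0.31. The SE was lower for each member with the replicate block, as for miR-99b-5p (0.074, against 0.110 under the main processing). With 3 arrays per age these values cannot decide whether the numbers pair the arrays. Slide row 1 alone (20-month array 1 against 3) gave -0.18, -0.17, -0.19, -0.16 and -0.00032 for the members in the order above. The ratios were tested without a fit across miRNAs, so block, filter and robust alternatives were not run for them.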
